A study of Mus musculus with 12 samples.

Results

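The 36 genes described here encode the folding and quality control machinery of the endoplasmic reticulum and the sensors of the unfolded protein response. They were taken by symbol from a list of known members, and all 36 were found among the 55291 symbols of the count table. All 36 had enough counts to be tested, as did 19010 genes in all. CD8+ T cells are the lymphocytes that kill infected or tumour cells; primary ones from lymph node and spleen were prepared from WT mice and from Dock8 KO mice (3 mice per genotype group in the design text). Dock8 is an activator of the small GTPase Cdc42, which controls actin assembly. All cells were activated and grown in vitro for 3 days, then held for 24 h in media or in a bovine collagen gel at 2 mg/mL, where they migrate. The 4 groups of 3 libraries are called WT media, WT gel, KO media and KO gel. The labels give neither the Dock8 allele nor the sex or age of the mice, and do not say whether media and gel libraries share mice, so p-values measure the spread between these libraries, which may be technical in part.

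Proteins bound for the cell surface or for secretion are threaded through the Sec61 channel into the endoplasmic reticulum, where chaperones of the Hsp70 and Hsp90 families, lectins and disulfide isomerases fold them. Molecules that fail to fold are returned to the cytosol and degraded, a route called ERAD. When unfolded protein builds up, the membrane sensors IRE1α (encoded by Ern1), PERK (Eif2ak3) and ATF6 act: IRE1α splices the Xbp1 mRNA, PERK phosphorylates the translation factor eIF2α, and ATF6 is cleaved to release a transcription factor. In activated T cells this compartment makes surface receptors, cytokines and the proteins of cytotoxic granules.

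The promoters of the genes were searched for known elements of the response. The ER stress response element (ERSE) consists of CCAAT, bound by the factor NF-Y, then 9 bases of any kind, then CCACG, bound by ATF6 or XBP1. RefSeq promoters (GRCm38.p6, 250 bases before to 50 after the start) were matched for 31 of the 36 genes, the others being Atf6, Manf, Hyou1, Derl1 and Sec61a1. Searched on both strands, the exact element occurred in a promoter of 10 of the 31 genes (32.3%). Over the genome it occurred in 39 of 32851 promoters (0.119%), a share of promoters rather than of genes. The genes were listed as known members of the response, so a higher frequency of its element here is not an independent result. The 11 sites are shown because the element was more frequent in these promoters than in all promoters, each 5′ to 3′ in the orientation of the motif with 5 bases on either side, with its fixed letters in capitals.
Hspa5, chr2:34772020-34772048, plus strand: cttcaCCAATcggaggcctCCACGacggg
Hsp90b1, chr10:86705633-86705661, minus strand: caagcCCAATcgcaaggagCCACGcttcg
Hsp90b1, chr10:86705528-86705556, plus strand: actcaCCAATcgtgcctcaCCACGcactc
Calr, chr8:84847070-84847098, plus strand: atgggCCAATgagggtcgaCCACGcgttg
Canx, chr11:50325795-50325823, minus strand: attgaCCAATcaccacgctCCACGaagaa
Pdia6, chr12:17266486-17266514, plus strand: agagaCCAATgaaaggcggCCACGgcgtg
Ero1lb, chr13:12565677-12565705, minus strand: ggcggCCAATgaggcgggaCCACGaggcc
Dnajc3, chr14:118937822-118937850, plus strand: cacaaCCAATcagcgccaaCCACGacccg
Creld2, chr15:88819515-88819543, minus strand: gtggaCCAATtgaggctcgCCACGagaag
Syvn1, chr19:6046527-6046555, plus strand: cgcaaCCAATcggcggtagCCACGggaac
Derl3, chr10:75893237-75893265, minus strand: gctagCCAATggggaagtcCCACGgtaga

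Only the spacer and flanks differ between these sites. Hsp90b1, the GRP94 gene, carried 2 of them, 1 in each orientation. The sites began 44 to 212 bases before the start. A shorter form, ERSE-II (ATTGG, 1 base of any kind, CCACG), was found in 2 of the genes (6.45%) and in 0.0365% of all promoters. In Herpud1, at chr8:94386372-94386392 on the plus strand, it read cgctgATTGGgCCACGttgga. In Dnajb11 it lay after the start. The UPRE bound by XBP1 and the amino acid response element bound by ATF4 had 0 exact matches in the 31 genes, against 0.676% and 0.965% of all promoters. A match describes letters in this window and not binding.

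Levels are in CPM, counts relative to the TMM-scaled library total. A gene was called at an adjusted p under 0.05 in the edgeR quasi-likelihood test, corrected over every tested gene by the Benjamini-Hochberg method. The libraries held 28483064 to 61390702 counts. Dock8 stood at 362 to 449.6 CPM in the 6 WT libraries and 109 to 168 in the 6 KO libraries. The KO gel libraries stood apart: at the depth of the smallest library, between 28362 and 30104 genes would be detected in them, and between 24336 and 25142 in the other 9. A set of 6736 protein-coding genes, near silent elsewhere, held 0.0101 to 0.0118 CPM per kb of exon in KO gel against 0.0017 to 0.00211. These genes were chosen for a mean under 0.05 CPM in the other 9 libraries, with no limit in KO gel. Part of that gap is therefore built in by the choice. The mitochondrial share of the KO gel libraries, 2.27 to 2.61%, overlapped the 1.34 to 2.31% of the others. Loci resembling ribosomal RNA took 19.0% of WT gel library 2 and 12.5% of KO media library 3, against 3.88 to 9.56% elsewhere. The part of these features in the results was not tested, apart from leaving libraries out.

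The 36 genes spanned a wide range of levels. Per kb of exon, which lets genes be compared, Pdia3 and Calr, partners in glycoprotein folding and in loading MHC class I, stood highest in WT media at 129 (SD 5.71) and 121 (SD 7.39, n = 3 libraries each) CPM per kb, a gap close to their spread. Hsp90b1 (98.8, SD 2.42), P4hb (94.0, SD 12) and Canx (91.8, SD 7.30) followed, in an order within their spread. Among the sensors, Eif2ak3 stood at 19.1 (SD 1.89), Xbp1 at 16.5 (SD 1.72), Atf6 at 6.41 (SD 0.321) and Ern1 at 1.35 (SD 0.117). Derl3, an ERAD gene of secretory cells, was lowest at 0.805 (SD 0.252).

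**Figure D1:**
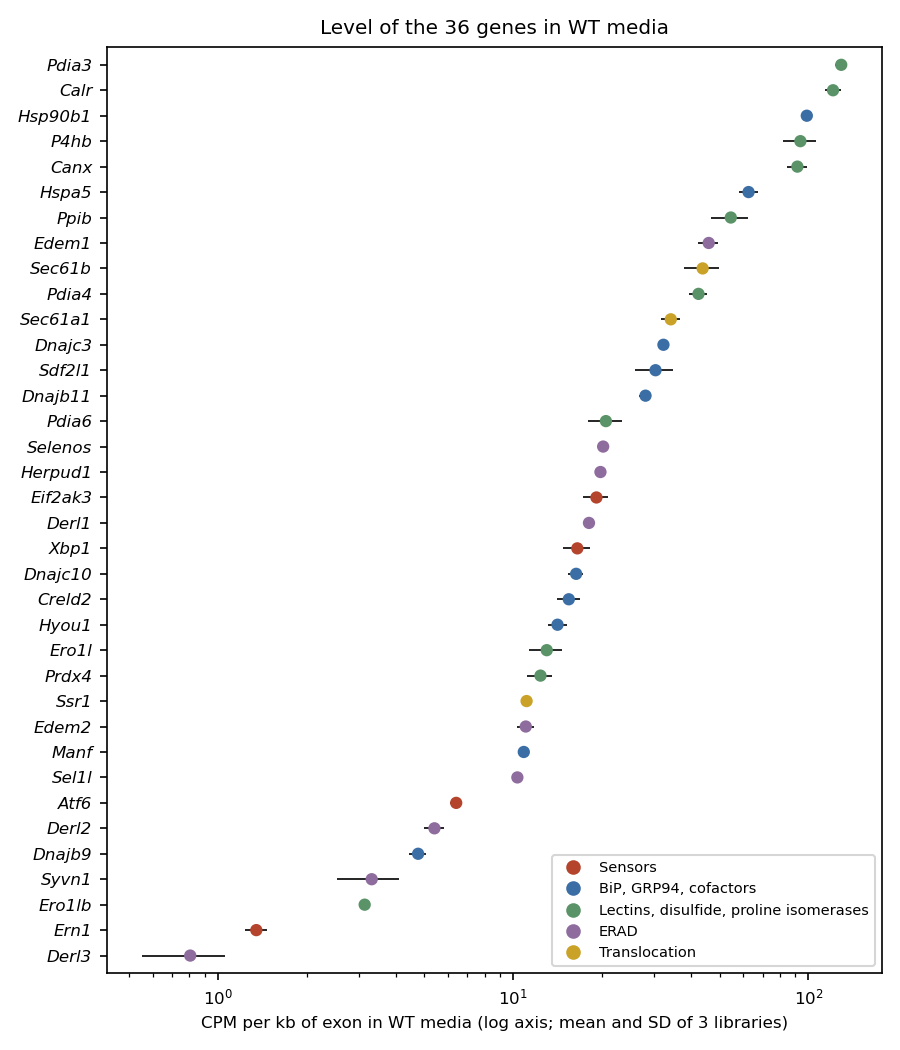
Level of each of the 36 genes in WT media, in CPM per kb of exon on a log axis, as the mean and SD of 3 libraries, coloured by role. Pdia3 and Calr stand highest, at 129 and 121, and Ern1 and Derl3 lowest, at 1.35 and 0.805.

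In WT cells, no gene of the 36 was called between gel and media by edgeR, where 0.0368% of all genes were called. At an unadjusted p under 0.05 there was 1, against 5.43% of all genes, and limma-voom called 0 and DESeq2 0. The log2 fold changes ran from −0.18 (Pdia6) to 0.49 (Derl3), with SE of 0.06 to 0.27. A miss of the threshold does not show that levels were equal. Eif2ak3 was the gene with the low unadjusted p, at 0.25 (SE 0.07, adjusted p 0.641). Its WT gel libraries all lay above those of WT media. With libraries of equal number blocked, 1 of the alternatives run, Eif2ak3 was called in WT cells.

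In Dock8 KO cells, 15 of the 36 genes fell in gel, 2 rose and 19 were not called. Among all genes, 9.74% were called lower and 11.1% higher. Among genes with mean log2 CPM at or over 3, which include 35 of the 36, these shares were 16.8% and 6.42%. The sensor genes Ern1 and Eif2ak3 rose; the oxidative folding genes Prdx4 and P4hb, chaperones such as Sdf2l1, Hsp90b1 and Canx, and all 3 translocation genes fell. The median log2 fold change was −0.25, beside −0.01 over all genes and −0.08 over those of mean log2 CPM at or over 3. Summed, the 36 genes took 3914 to 4123 CPM in KO gel and 4586 to 4824 in KO media, without overlap, the KO gel mean being 86.3% of the KO media mean. WT gel (4113 to 4541) and WT media (4233 to 4656) overlapped. In bulk RNA, fewer cells of a type and less RNA per cell cannot be told apart.

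Scaled by total counts alone, 6 of the 36 were lower and 2 higher (75.0% of calls lower, against 88.2%), and fitted among the higher-level genes alone 9 and 3 (75.0%). Without KO gel library 1 there were 8 lower and 2 higher, and without the pair rich in ribosomal RNA 7 and 2. Ern1, Eif2ak3, Prdx4, P4hb, Pdia4 and Sdf2l1 passed the test in all 15 alternatives, while Sec61b failed in 10, Edem2 in 7 and Creld2 in 6.

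**Figure D2:**
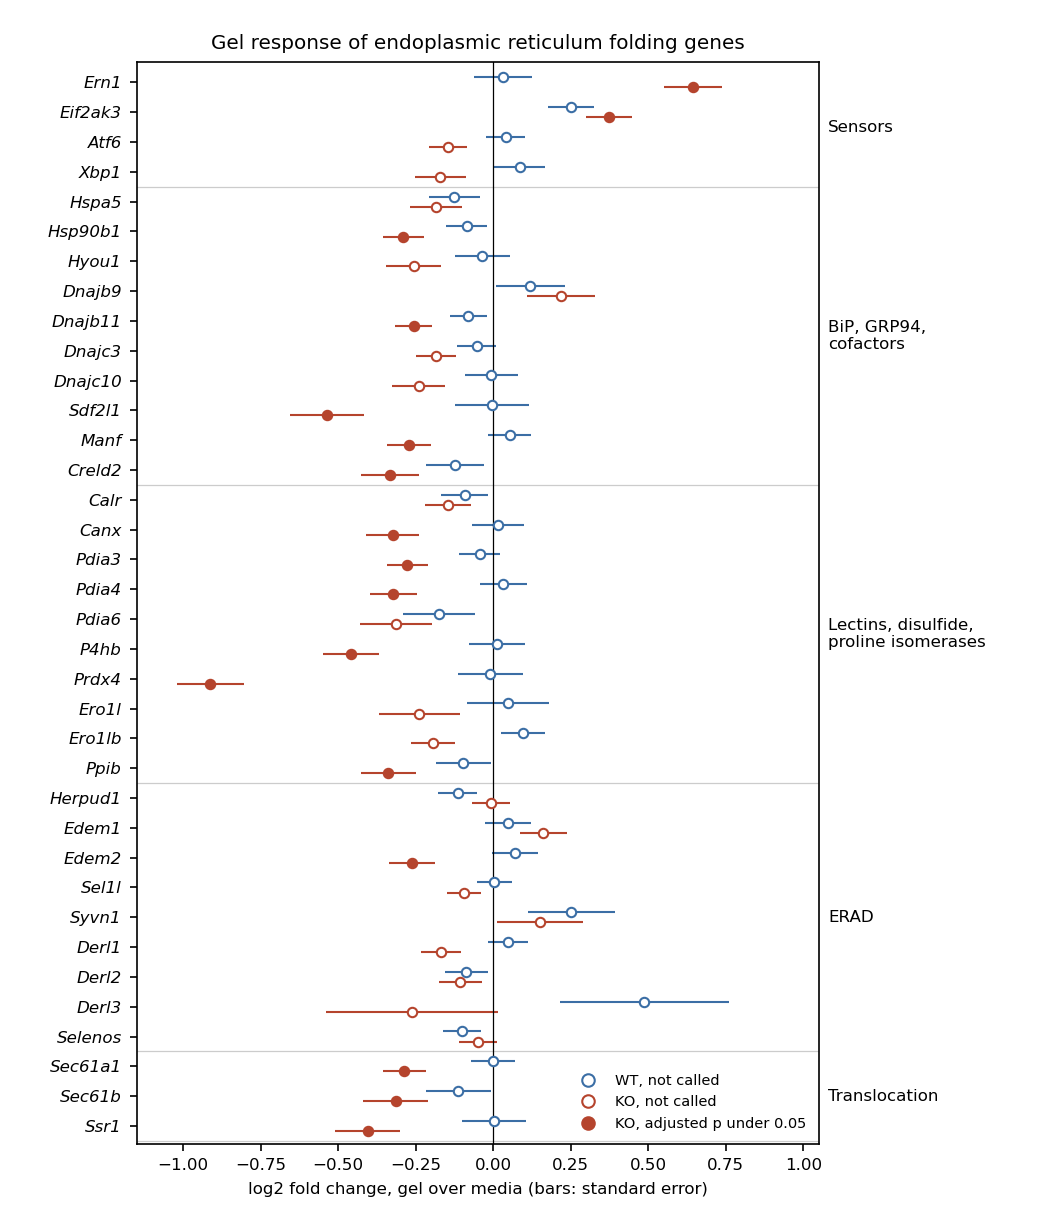
Log2 fold change of gel over media for each of the 36 genes in WT cells (blue) and Dock8 KO cells (red), with the standard error as bars; filled points passed the test. Prdx4, at −0.91 in KO cells, lies farthest left and Ern1, at 0.64, farthest right.

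Of the 4 sensor and factor genes, 2 rose in KO gel and 0 fell. For Ern1, the WT media libraries gave 9.91, 11.5 and 11.6 CPM, those of WT gel 11.1, 11.7 and 11.0, those of KO media 10.2, 10.2 and 10.3, and the KO gel libraries 14.6, 17.8 and 15.6. Every KO gel library lay above the other 9, which ran from 9.91 to 11.7. Ern1 rose 1.56-fold in KO gel (log2 fold change 0.64, SE 0.09, adjusted p 0.000398). Its mean per kb of exon was 1.25 CPM in KO media and 1.95 in KO gel. For Eif2ak3, the WT media libraries gave 124, 119 and 102 CPM, those of WT gel 145, 138 and 128, those of KO media 115, 108 and 112, and the KO gel libraries 145, 144 and 145. Both gel groups lay above both media groups, and the gel groups overlapped. The rise of Eif2ak3 passed the test in KO cells (log2 fold change 0.37, SE 0.07, adjusted p 0.00356). Of its exon bases 8.05% lie opposite the gene model Gm43292, whose reads cannot be told apart without strand.

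For Xbp1, the WT media libraries gave 59.6, 52.4 and 48.7 CPM, those of WT gel 59.3, 60.6 and 50.7, those of KO media 62.7, 62.7 and 64.0, and the KO gel libraries 53.4, 57.6 and 57.2. The KO gel libraries lay below those of KO media and within the WT range, a difference that did not pass the test (log2 fold change −0.17, SE 0.08, adjusted p 0.148). Gene counts do not show whether Xbp1 mRNA was spliced. For Atf6, the WT media libraries gave 60.4, 61.4 and 55.8 CPM, those of WT gel 61.3, 62.1 and 59.3, those of KO media 63.5, 62.9 and 62.3, and the KO gel libraries 54.5, 61.1 and 54.9. Each KO gel library lay below KO media and 2 lay below all WT libraries, again without passing the test (log2 fold change −0.15, SE 0.06, adjusted p 0.107).

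Hspa5 encodes BiP, the Hsp70 that holds the sensors inactive and a classic target of the response. For Hspa5, the WT media libraries gave 287, 257 and 251 CPM, those of WT gel 275, 232 and 222, those of KO media 287, 299 and 289.8, and the KO gel libraries 245, 263 and 262. All KO gel libraries lay below KO media yet within the WT range, with log2 fold change −0.18, SE 0.08, adjusted p 0.123. It passed the test in 3 of 15 alternatives. Hsp90b1 encodes GRP94, which folds integrins and Toll-like receptors. For Hsp90b1, the WT media libraries gave 409, 396 and 389.8 CPM, those of WT gel 394, 381 and 351, those of KO media 427, 464 and 449.7, and the KO gel libraries 352, 375 and 369. KO media stood above all WT libraries, and KO gel fell to a range that overlaps WT gel (log2 fold change −0.29, SE 0.07, adjusted p 0.00782). Of its exon bases 10.3% lie opposite a pseudogene.

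Of the 10 genes of BiP, GRP94 and their cofactors, 5 fell in KO gel and 0 rose. For Sdf2l1, the WT media libraries gave 39.1, 32.0 and 29.7 CPM, those of WT gel 38.9, 32.0 and 29.8, those of KO media 35.5, 41.3 and 36.9, and the KO gel libraries 22.7, 27.7 and 28.0. Sdf2l1, a partner of the J-domain cochaperone ERdj3, was lower in KO gel than in every other library (log2 fold change −0.54, SE 0.12, adjusted p 0.00727). For Dnajb11, the WT media libraries gave 95.6, 89.5 and 87.4 CPM, those of WT gel 89.7, 87.4 and 80.8, those of KO media 95.9, 93.3 and 91.8, and the KO gel libraries 75.9, 78.9 and 80.4. Dnajb11, which encodes ERdj3, was likewise lowest there (log2 fold change −0.26, SE 0.06, adjusted p 0.00981). For Manf, the WT media libraries gave 38.1, 38.3 and 38.5 CPM, those of WT gel 41.0, 41.7 and 36.5, those of KO media 39.4, 37.7 and 41.7, and the KO gel libraries 30.4, 34.4 and 33.6. Manf, whose product is secreted and binds BiP, also lay below the other 9 (log2 fold change −0.27, SE 0.07, adjusted p 0.016). For Creld2, the WT media libraries gave 23.0, 21.0 and 19.2 CPM, those of WT gel 21.6, 19.1 and 17.5, those of KO media 23.5, 23.4 and 22.9, and the KO gel libraries 16.6, 19.2 and 19.6. Creld2, a stress-induced gene, lay below KO media and overlapped WT gel (log2 fold change −0.33, SE 0.09, adjusted p 0.0227).

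Hyou1, the nucleotide exchange factor of BiP, and the J-domain genes Dnajc3 and Dnajc10 had log2 fold changes of −0.26, −0.19 and −0.24, with adjusted p of 0.0553, 0.0529 and 0.0599. Dnajb9, which encodes ERdj4, a cochaperone that represses IRE1α, had the opposite sign, 0.22 (SE 0.11, adjusted p 0.161).

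**Figure D3:**
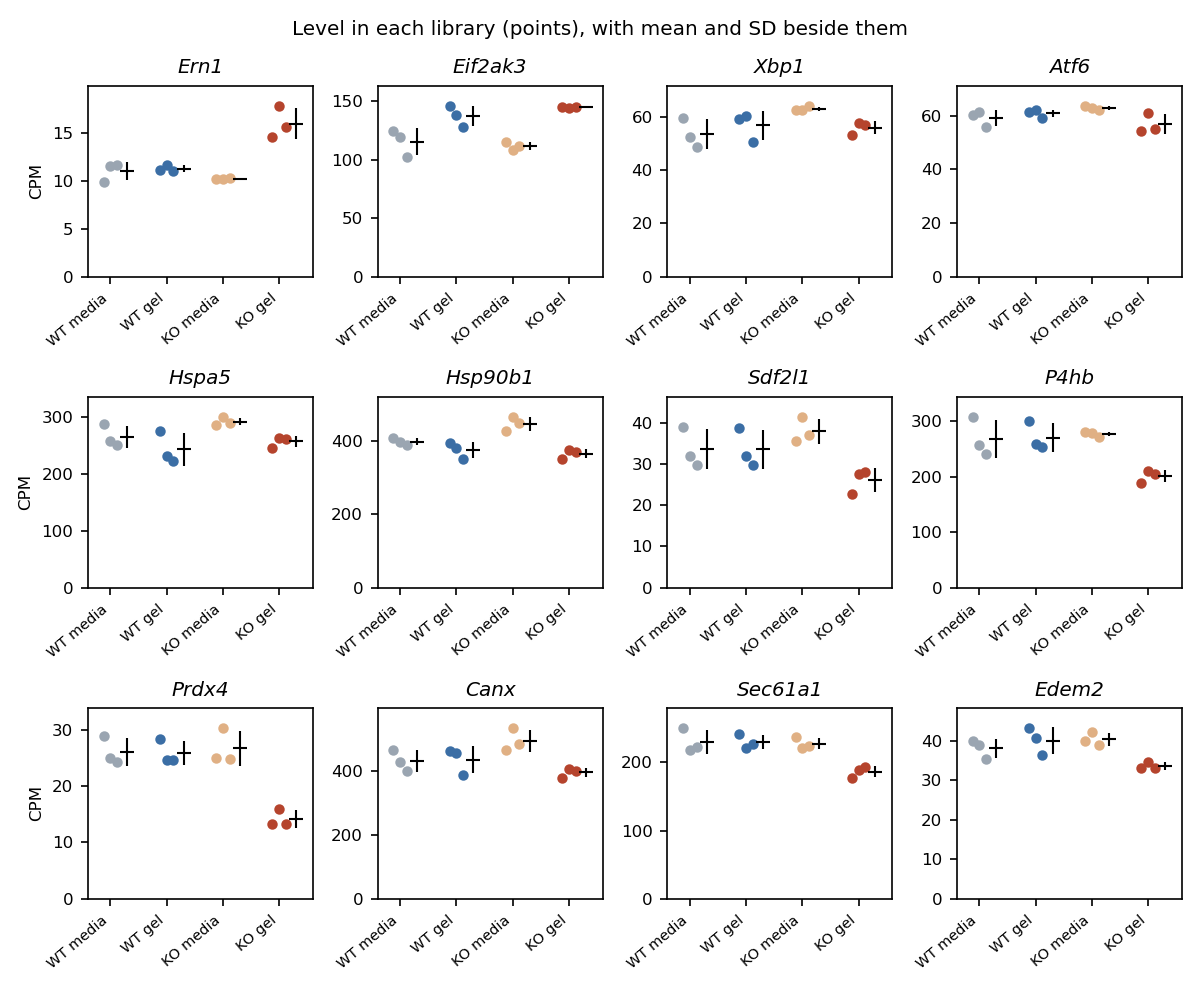
CPM of 12 of the genes in each library (points, 3 per group), with the mean and SD beside them; axes start at 0. In KO gel Ern1 lies above the other 9 libraries, Sdf2l1, P4hb, Prdx4, Sec61a1 and Edem2 lie below them, and Hspa5 and Xbp1 lie within the WT range.

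Of the 10 lectin chaperones, disulfide isomerases and proline isomerases, 6 fell in KO gel and 0 rose. Prdx4, a peroxiredoxin that uses hydrogen peroxide to make disulfides, changed the most of the 36. For Prdx4, the WT media libraries gave 29.0, 24.9 and 24.3 CPM, those of WT gel 28.4, 24.7 and 24.6, those of KO media 25.1, 30.3 and 24.8, and the KO gel libraries 13.3, 16.0 and 13.3. The other 3 groups overlapped one another and KO gel lay far below them (log2 fold change −0.91, SE 0.11, adjusted p 0.000114). For P4hb, the WT media libraries gave 307, 258 and 241 CPM, those of WT gel 300.2, 259 and 253, those of KO media 280.4, 279 and 273, and the KO gel libraries 189.6, 211 and 205. P4hb encodes protein disulfide isomerase, the enzyme that passes disulfides on to folding chains, and was lowest in KO gel (log2 fold change −0.46, SE 0.09, adjusted p 0.0036).

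For Canx, the WT media libraries gave 467, 427 and 399 CPM, those of WT gel 462, 456 and 388, those of KO media 466, 533 and 485, and the KO gel libraries 379, 406 and 399.9. Canx encodes calnexin, the membrane lectin that holds new glycoproteins; KO gel lay below KO media, and 2 of its libraries exceeded the lowest WT library (log2 fold change −0.32, SE 0.09, adjusted p 0.0168). For Pdia3, the WT media libraries gave 426, 399 and 392 CPM, those of WT gel 409, 398 and 373, those of KO media 432, 455 and 446, and the KO gel libraries 345, 378 and 378. Pdia3 (ERp57), the isomerase that works with calnexin and calreticulin, fell below KO media and overlapped WT gel (log2 fold change −0.28, SE 0.07, adjusted p 0.0106). For Pdia4, the WT media libraries gave 110.2, 98.2 and 97.0 CPM, those of WT gel 113, 105 and 94.0, those of KO media 113, 113 and 109, and the KO gel libraries 84.6, 92.5 and 91.3. The isomerase gene Pdia4 lay below the other 9 libraries (log2 fold change −0.32, SE 0.08, adjusted p 0.00921). For Ppib, the WT media libraries gave 210.2, 168 and 163 CPM, those of WT gel 183, 165 and 158, those of KO media 188, 182 and 186, and the KO gel libraries 143, 148 and 149. Ppib, the proline isomerase cyclophilin B, lay below them too (log2 fold change −0.34, SE 0.09, adjusted p 0.0164); 25% of its exon bases lie opposite Snx22, so its counts are uncertain. Calr, Pdia6, Ero1l and Ero1lb (calreticulin, an isomerase and the oxidases that recharge isomerases) were not called, at −0.15, −0.31, −0.24 and −0.19, with adjusted p of 0.173, 0.0667, 0.198 and 0.0685.

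All 3 translocation genes fell in KO gel. For Sec61a1, the WT media libraries gave 249.9, 218 and 222 CPM, those of WT gel 241, 221 and 228, those of KO media 237, 222 and 224, and the KO gel libraries 177, 189 and 193. Sec61a1, the pore of the channel, lay below the other 9 libraries (log2 fold change −0.29, SE 0.07, adjusted p 0.0111); 8.16% of its exon bases lie opposite Gm44170. For Ssr1, the WT media libraries gave 115, 115 and 117 CPM, those of WT gel 112, 122.6 and 114, those of KO media 113, 166 and 126, and the KO gel libraries 98.7, 104 and 103. Ssr1, a subunit of the translocon-associated complex, was lowest in KO gel and highest in KO media library 2 (log2 fold change −0.40, SE 0.10, adjusted p 0.0154). For Sec61b, the WT media libraries gave 64.5, 51.5 and 51.1 CPM, those of WT gel 58.8, 51.0 and 44.8, those of KO media 59.0, 61.3 and 52.5, and the KO gel libraries 45.4, 48.2 and 45.4. Sec61b, the small β subunit, lay below KO media, overlapped WT gel and was near the threshold (log2 fold change −0.31, SE 0.11, adjusted p 0.0482).

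Of the 9 ERAD genes, 1 fell, 0 rose and 8 were not called. The 1 that fell is 11.1%, near the 9.74% of all genes and below the 16.8% of higher-level genes. For Edem2, the WT media libraries gave 40.1, 39.0 and 35.5 CPM, those of WT gel 43.2, 40.7 and 36.4, those of KO media 39.99, 42.3 and 38.9, and the KO gel libraries 33.1, 34.8 and 33.2. Edem2, which helps start the mannose trimming that marks glycoproteins for disposal, lay below the other 9 libraries in KO gel (log2 fold change −0.26, SE 0.07, adjusted p 0.0227). Its relative Edem1 stood at 0.16 (SE 0.07, adjusted p 0.133). The ligase pair Sel1l and Syvn1 had −0.09 and 0.15, the stress-induced Herpud1 −0.01, Derl1, Derl2 and Derl3 −0.17, −0.11 and −0.26, and Selenos −0.05, with SE over the 9 genes of 0.06 to 0.28. Summed, the ERAD genes took 616 to 651 CPM in KO gel and 613 to 633 in KO media, which overlap. Edem1 was the largest part of that sum, with means of 336 CPM in KO gel and 300 in KO media. The sum therefore leans on that gene. Of the 9 log2 fold changes, 7 were negative and 2 positive, where 6476 of 9956 higher-level genes were negative. The difference between roles was not tested.

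**Figure D4:**
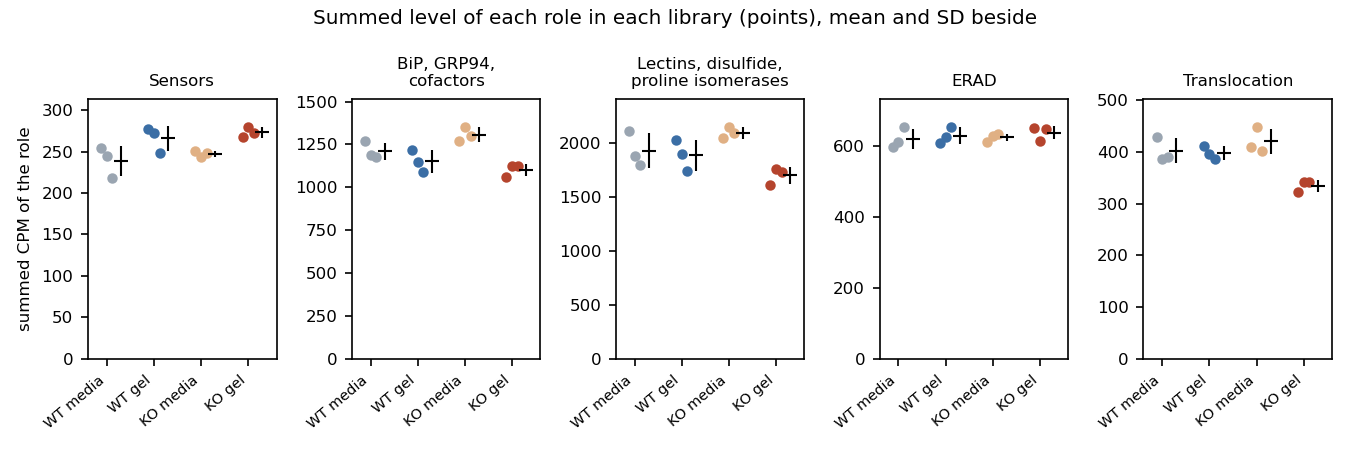
Summed CPM of each role in every library (points, 3 per group), with the mean and SD beside them; axes start at 0. The lectin and isomerase sum is 2044 to 2151 in KO media and 1612 to 1763 in KO gel, the translocation sum 402 to 448 and 321 to 341, and the sensor sum 244 to 251 and 268 to 280.2. Eif2ak3 is the largest part of the sensor sum, with means of 111 CPM in KO media and 144.5 in KO gel. Edem1 is the largest part of the ERAD sum.

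Between KO and WT cells in media, edgeR called no gene of the 36 (0.189% of all genes were called). At an unadjusted p under 0.05 there were 3, against 7.49% of all genes, and limma-voom called 0 and DESeq2 0. Those genes were Xbp1 (0.24), Hsp90b1 (0.17) and Canx (0.20), with adjusted p of 0.538, 0.606 and 0.625. For Xbp1 and Hsp90b1 all KO media libraries lay above all WT media libraries. The median over the 36 was 0.06, and 28 had a positive difference. Over all genes the median was −0.01, with 8953 of 19010 positive. At mean log2 CPM at or over 3 it was −0.002, with 4884 of 9956 positive.

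Between KO and WT cells in gel, 7 of the 36 genes were lower in KO and 1 was higher, with 7.71% of all genes called lower and 7.12% higher, or 13.3% and 4.03% at mean log2 CPM at or over 3. This comparison shares the KO gel libraries with the gel response of KO cells. Prdx4 stood at −0.87 (SE 0.11, adjusted p 0.000237), P4hb at −0.42 (SE 0.09, adjusted p 0.00702), Sec61a1 at −0.30 (SE 0.07, adjusted p 0.0104), Manf at −0.28 (SE 0.07, adjusted p 0.0189), Edem2 at −0.25 (SE 0.07, adjusted p 0.0349) and Ern1 at 0.51 (SE 0.09, adjusted p 0.00276). For Ero1lb, the WT media libraries gave 20.1, 21.2 and 21.4 CPM, those of WT gel 20.8, 23.2 and 22.9, those of KO media 20.4, 21.0 and 22.7, and the KO gel libraries 19.5, 18.2 and 18.4. The oxidase gene Ero1lb was lowest in KO gel and differed between the genotypes in gel (log2 fold change −0.26, SE 0.07, adjusted p 0.0298). For Derl1, the WT media libraries gave 60.9, 59.4 and 59.9 CPM, those of WT gel 63.1, 60.3 and 62.9, those of KO media 57.01, 65.4 and 59.7, and the KO gel libraries 51.9, 52.7 and 57.3. Derl1, of the ERAD exit route, lay below WT gel and overlapped KO media (log2 fold change −0.20, SE 0.06, adjusted p 0.0482); its call was lost in 11 of 15 alternatives. Hspa5, Calr and Eif2ak3 were not called, at 0.08, 0.04 and 0.08, with adjusted p of 0.556, 0.764 and 0.531.

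Scaling by total counts moved the median of all genes in this comparison by 0.10 and left 1 gene lower and 1 higher (50% of calls lower, against 87.5%). Relative to that median, 28 of the 36 lay lower under TMM and 28 under total counts. Fitted among the higher-level genes, 3 were lower and 1 higher (75.0%), and 21 lay below the median of that fit. In the main fit, 6448 of the 9956 higher-level genes had a negative value here, beside 28 of the 36. The 8 calls became 5 or 4 when WT gel library 1 or 2 was dropped, and 5 when either KO gel library 1 or 2 was. Over all 12 libraries, 14 of the 36 had every KO gel value below the other 9 (38.9%, against 11.3% of all genes), and 1, Ern1, had every value above (2.78%, against 10% of all genes). The shares among higher-level genes were not computed for this, so the gap may be overstated. Against KO media alone, every KO gel value lay lower in 3700 of 9956 higher-level genes and in 4536 of all 19010. The count there was 26 of the 36.

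Testing the difference of the responses, the interaction of genotype and culture, called 2 of the 36 genes and 3.35% of all genes. For Ern1, the response was 0.03 in WT and 0.64 in KO cells, a difference of 0.61 (SE 0.13, adjusted p 0.0257). For Prdx4 it was −0.01 and −0.91, a difference of −0.90 (SE 0.15, adjusted p 0.0088). At an unadjusted p under 0.05 there were 15 of the 36, against 19.6% of all genes, among them P4hb (−0.47, adjusted p 0.0619) and Pdia4 (−0.35, adjusted p 0.0862). Scaling by total counts moved the median interaction value of all genes by 0.12, and both genes were still called. For the genes not called the values ran from −0.75 to 0.12. The Ern1 call was lost when any of WT media 2 or 3, KO media 1 or 3, WT gel 1 or 2, or KO gel 2 or 3 was left out, with values of 0.53 to 0.63 and adjusted p of 0.0507 to 0.0772. Without the pair rich in ribosomal RNA neither gene was called (Ern1 0.64, adjusted p 0.108; Prdx4 −0.99, adjusted p 0.0537). Leaving out WT media 1 or WT gel 3 raised the calls to 10 and 7.

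Of 98 other tested genes of the pathway, 34 fell and 5 rose in KO gel, with a median of −0.16. These are 34.7% and 5.1%, beside 9.74% and 11.1% of all genes and 16.8% and 6.42% of those of mean log2 CPM at or over 3. The examples were taken in order of p. Subunits of the oligosaccharyltransferase, which attaches glycans to entering chains, fell in 8 of 11, among them Rpn2 (−0.45), Tusc3 (−0.39), Ddost (−0.39) and Stt3b (−0.25). Genes of the translocon, signal recognition and signal peptidase fell in 9 of 21 and rose in 1; those that fell include Spcs3 (−0.48), Srpr (−0.26), Spcs2 (−0.35) and Sec11a (−0.20). The riser was Sec61a2, a paralog of the pore gene that was named after its values were seen, at 0.48 (SE 0.16, adjusted p 0.0493). Further disulfide and folding genes fell in 8 of 22, among them Erp29 (−0.38), Txndc5 (−0.39) and Cnpy2 (−0.40). Genes of glycan trimming fell in 4 of 10 and rose in 1: the glucosidases Ganab and Mogs stood at −0.25 and −0.44, the cargo receptor Lman1 at −0.30, and the folding sensor Uggt2, a gene of 0.976 CPM in KO media and 1.96 in KO gel, at 1.00. Other ERAD genes fell in 3 of 17 (17.6%, near the share of higher-level genes) and rose in 1, with Aup1 at −0.31 and Ubxn4 at 0.21. Scaled by total counts, 11 of the 98 were lower and 4 higher, and without the pair rich in ribosomal RNA 13 and 2.

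Of 17 genes of the PERK arm and other regulators, 2 were higher and 2 lower in KO gel. Each is 11.8%, near the shares of all genes. For Ddit3, the WT media libraries gave 7.57, 8.36 and 9.01 CPM, those of WT gel 6.98, 7.80 and 7.73, those of KO media 8.04, 6.26 and 8.46, and the KO gel libraries 11.8, 11.4 and 11.6. Ddit3, which encodes the stress factor CHOP, lay above the other 9 libraries (log2 fold change 0.61, SE 0.11, adjusted p 0.00242). Ppp1r15a, the stress-induced phosphatase subunit that reverses eIF2α phosphorylation, rose by 0.43 (SE 0.10, adjusted p 0.0113), and its constitutive counterpart Ppp1r15b fell by 0.23 (SE 0.05, adjusted p 0.0103). Atf6b, a relative of Atf6, fell by 0.22, a call lost in 8 of 15 alternatives. Atf4, the factor translated when eIF2α is phosphorylated, stood at 0.12 (SE 0.07, adjusted p 0.216) against KO media and 0.36 (SE 0.07, adjusted p 0.00399) against WT gel. Against WT gel, 14 of the 98 genes were lower in KO gel (14.3%) and 3 higher (3.06%). Those shares are near the 13.3% and 4.03% of higher-level genes. Scaled by total counts, with its shift of the median, 0 were lower and 5 higher. In WT gel against WT media edgeR called 0, with 5 at an unadjusted p under 0.05 and 0 by limma-voom or DESeq2.

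Of 19 cytosolic chaperones, given for comparison, 3 were higher and 4 lower in KO gel (15.8% and 21.1%). Among all genes 11.1% were higher and 9.74% lower. At mean log2 CPM at or over 3 these shares were 6.42% and 16.8%. The heat-inducible Hsp70 gene Hspa1a rose by 4.10 (SE 0.18, adjusted p 1.31e-08) and may share reads with its near copy Hspa1b (3.79). Hspa1a started from a low level, with 15 to 29 counts per library outside KO gel and 219 to 300 in KO gel. The constitutive Hspa8 fell by 0.60 (SE 0.08, adjusted p 0.000355).

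Read against the promoters, 3 of the 10 genes with an ERSE fell in KO gel (Hsp90b1, Canx and Creld2) and 7 were not called. Of the 21 without it, 10 fell and 2 rose. The median log2 fold changes were −0.23 and −0.24, and the difference was not tested.

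Markers of other cell types were read beside these values, as summed CPM in KO gel, KO media and WT gel in turn. The CD8 T cell markers (7 genes) summed to 2512 to 2582, 2477 to 2749.9 and 2725 to 3003, so that KO gel overlapped KO media and lay below WT gel (89.6% of its mean). The B and plasma cell markers (11 genes) summed to 943 to 984, 929 to 1098 and 1116 to 1248, with KO gel again below WT gel (82.9%). Most of that sum was Ighm (778, 814 and 945), and Cd79b stood at 10.5, 12.9 and 13.2. Of 7 tested, Sdc1 rose against both (1.91, 0.533 and 1.04), and Irf4 was lower than in WT gel. Platelet and erythroid markers (4 genes) summed to 9.53 to 19.1, 4.11 to 5.74 and 3.30 to 4.54, mostly Itga2b (9.54, 3.27 and 2.90), with KO gel at 397% of WT gel. Neutrophil and mast cell markers (5 genes) summed to 2.45 to 5.79, 1.10 to 3.08 and 0.831 to 1.19, with KO gel at 395% of WT gel. Of the 3 tested, 2 rose against KO media, Fcer1a (0.750, 0.177 and 0.00923) and Mcpt8 (0.654, 0.141 and 0.0410), and 3 against WT gel, while S100a8 and S100a9 were at 0 in KO gel and WT gel. The CD4 T cell sum (4 genes) was 31.7 to 36.9, 34.0 to 36.2 and 29.2 to 36.1, mostly Zbtb7b. Of that list Cd4 (5.29, 3.04 and 2.39) and Cd40lg (0.689, 0.278 and 0.448) rose against KO media and Cd4 against WT gel. The sum for macrophages and dendritic cells (6 genes) was 36.4 to 48.4, 40.7 to 48.7 and 20.4 to 36.8. It was mostly Itgax, with KO gel at 149% of WT gel. The sum for stromal cells (6 genes) was 121 to 134, 112 to 131 and 126 to 143, nearly all Pecam1. Against WT gel, 1 of the 4 tested stromal markers was called higher and 1 of the 7 CD8 T cell markers lower. Among all genes 7.12% were called higher and 7.71% lower there. Against KO media the shares over all genes were 11.1% higher and 9.74% lower. The part of these markers in the results was not tested.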

How the data were processed

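Bulk RNA of 12 libraries was read from 1 table of raw counts per gene symbol. Per the submitters' processing notes the authors used HISAT2 and featureCounts, with FastQC, Picard, SAMtools and MultiQC, on GRCm38 (mm10), and deposited counts that are not normalized; their versions, the annotation and the strand setting are not stated there. Libraries were depleted of ribosomal RNA, per the labels' protocols. The 36 genes, the other lists and the markers were chosen with earlier results of these data known.

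All 12 libraries were fitted at once in R 4.3.3 with edgeR 4.0.16 (TMM, filterByExpr, robust quasi-likelihood F test), and p-values were adjusted over 19010 genes. Of 55291 symbols, 15905 had no count. SE is the log2 fold change divided by the root of F. CPM used the TMM-scaled library size, and exon lengths came from GENCODE M21. Alternatives were other scalings and filters, DESeq2 1.42.0, limma-voom (limma 3.58.1), the compared groups alone, a replicate block, and leaving out libraries. The edgeR script was tested on simulated data. Values in every library are given for each of the 36 called in any comparison and for Xbp1, Atf6, Ern1, Eif2ak3 and Hspa5. From each other list, up to 4 called genes per comparison were taken in order of p, given as fold changes except Ddit3. Ero1l and Ero1lb were matched to RefSeq through synonyms. Protein ends were not searched here.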

Additional observations from a re-analysis of the deposited data

Results flagged for a closer look

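For 6 genes the gel response differed between KO and WT cells by the test of the difference itself (edgeR quasi-likelihood test of the interaction, Benjamini-Hochberg adjusted over all genes). Of the 36 genes, 2.78% were called higher and 2.78% lower, and of the 98 others 1.02% and 3.06%. Among all genes the shares were 1.89% and 1.45%, and 1.03% and 2.66% at mean log2 CPM at or over 3. The counts of these genes are thus near the general shares. Among the 36, the KO minus WT difference on the log2 scale was 0.6128 for Ern1 (adjusted p 0.0257) and −0.9022 for Prdx4 (adjusted p 0.0088). Among the other pathway genes it was 0.76 for Ddit3 (adjusted p 0.0257), −0.5003 for Rpn2 (adjusted p 0.0201), −0.4387 for the thioredoxin-related Tmx2 (adjusted p 0.0316) and −0.3357 for Ganab (adjusted p 0.0351). Of 20 alternatives the call was lost in 9 for Ern1, 1 for Prdx4, 8 for Ddit3, 4 for Rpn2, 12 for Tmx2 and 12 for Ganab. Without the pair of libraries rich in ribosomal RNA, Ddit3, Rpn2, Tmx2 and Ganab all lost their call.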

How the results depend on the processing

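Among the 36 and the other pathway genes, no named value that passed the test changed sign under the alternatives run. The values of the cytosolic chaperones and cell type markers were not followed through the alternatives. Of the 36 genes, the calls in KO gel against KO media (17) became 8 with total counts and 9 without WT gel library 2 and KO media library 3. The calls between KO and WT in gel (8) became 2 with total counts, 4 among genes of mean log2 CPM at or over 3, and 4 without those libraries. The calls of the interaction (2) became 7 without a filter, 4 with DESeq2 and 0 without those libraries. Leaving out 1 library at a time gave 10 to 17 in KO gel, 4 to 9 between genotypes in gel and 1 to 10 for the interaction, and 0 in WT gel and between genotypes in media. The cause was not tested. Over all genes, 7 calls in WT gel became 15 with total counts, 195 without a filter, 4 among higher-level genes, 50 with DESeq2 and 2 with the compared groups alone. In KO gel 3962 became 6063 without a filter, 2055 among higher-level genes, 6159 with the compared groups alone and 2200 without the libraries rich in ribosomal RNA. For KO against WT in media 36 became 435 without a filter, 19 among higher-level genes, 89 with DESeq2 and 19 without those libraries. In gel 2819 became 1511 among higher-level genes and 1444 without those libraries. For the interaction 636 became 1768 without a filter, 248 among higher-level genes, 1149 with DESeq2 and 30 without those libraries. Depth limits Derl3 the most, whose SE in KO gel was 0.28.

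The replicate numbers are shared by the groups, but no label ties them to a mouse or a day. Deviations of same-numbered libraries from their group means correlated at −0.19 to 0.51, and no pair of groups had all 3 above 0.1. Between WT media and WT gel they correlated at 0.42, 0.06 and 0.51 for numbers 1, 2 and 3. Unlike numbers of those groups gave −0.46 to 0.07. In the other pairs of groups the same numbers gave −0.19 to 0.17. Whether WT libraries of equal number share a mouse was not tested, and the main fit did not pair them. With a replicate block the calls among the 36 were 1 in WT gel (Eif2ak3), 29 in KO gel and 17 for the interaction. Between genotypes they were 0 in media and 10 in gel. Over all genes they were 171 in WT gel, 7804 in KO gel and 3431 for the interaction. Between genotypes over all genes they were 57 in media and 3594 in gel.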
